A study of Drosophila melanogaster with 6 samples.

Results

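The Dpr proteins are a family of cell-surface immunoglobulin proteins of Drosophila melanogaster, and the genes dpr1 to dpr10 were followed here in the proboscis, which carries most of the taste bristles of the fly head. The members were the 10 genes with these symbols in the array's probe annotation, updated through the Entrez identifier, out of 11982 genes that had a probe set of their own. All 10 were represented, by 23 probe sets that each match a single gene, and where a gene had several, that with the highest 6-array mean stood for it. Total RNA came from proboscises of male flies kept at room temperature to an age of 8 to 18 days past eclosion. There were 3 arrays from males homozygous for the poxn70 mutation and 3 arrays from poxn70 heterozygous males, each a biological replicate pooled from 164 to 280 proboscises, per the labels. Both genotypes carry poxn70, so the heterozygotes have 1 mutant copy and are no wild type. The paired-domain transcription factor Pox neuro (Poxn) makes a sensory bristle a taste bristle; without it, the bristle forms as a touch bristle with a mechanosensory neuron. The comparison asks which Dpr transcripts of the proboscis depend on it.

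The family takes its name from dpr1, whose loss causes a defective proboscis extension response: mutant flies no longer avoid salt in this feeding reflex. Dpr proteins carry tandem immunoglobulin domains on the neuronal surface and bind a second family of immunoglobulin proteins, the Dpr-interacting proteins (DIPs). Different neurons express different members, and matched Dpr and DIP pairs guide the choice and the number of synaptic partners, best known in the optic lobe and at the neuromuscular junction.

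Expression is given as log2 GCRMA values, in which the background of each probe is corrected from its sequence, and means carry the SD over the 3 arrays of a genotype. Values under 3 were treated as background, since probe sets without signal gather in a narrow band there: on 48.2% of the 18769 probe sets tested, every array read under 3. Signals of different probe sets do not measure relative transcript amounts, so genes are compared between genotypes and not with each other. Differences are homozygous minus heterozygous from limma, adjusted over all 18769 probe sets, with 0.05 as the threshold. The probe set of Poxn was itself at background, with 2.65, 2.37 and 2.37 in the homozygous arrays, against 2.36, 2.30 and 2.37 in the heterozygous arrays, so it gave no check of the labels. Homozygous replicate 1 stood apart. The probe sets at the 5′ end of the control transcripts eIF-4a and GAPDH read 2.80 and 2.22 on it, against 7.17 to 8.43 and 7.52 to 8.93 on the other arrays. Those at the 3′ end read 12.98 and 13.03 on it, against 14.11 to 14.33 and 13.08 to 13.35 on the others, and those in the middle 8.02 and 9.12, against 11.90 to 12.36 and 11.56 to 12.32. The number of arrays limits the precision.

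Of the 10 Dpr genes, 5 gave values above the background limit in the proboscis (dpr5, dpr7, dpr8, dpr9 and dpr10), and dpr1, dpr2, dpr3, dpr4 and dpr6 stayed under it on every array. Among the members above the limit, dpr5 had the largest difference between genotypes, 3.19-fold lower in homozygotes and without overlap between the groups, but it did not pass the test over all probe sets. In the other 4, the difference was smaller than the SD of the more variable genotype. The only member past the threshold was dpr6, which was at background in both genotypes. That is 1 of 10 members called, against 0.373% of all probe sets tested (0.314% lower and 0.0586% higher), and 0 of 10 called lower. Of all genes, 66.2% lay above the limit in at least 1 genotype.

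**Figure D1:**
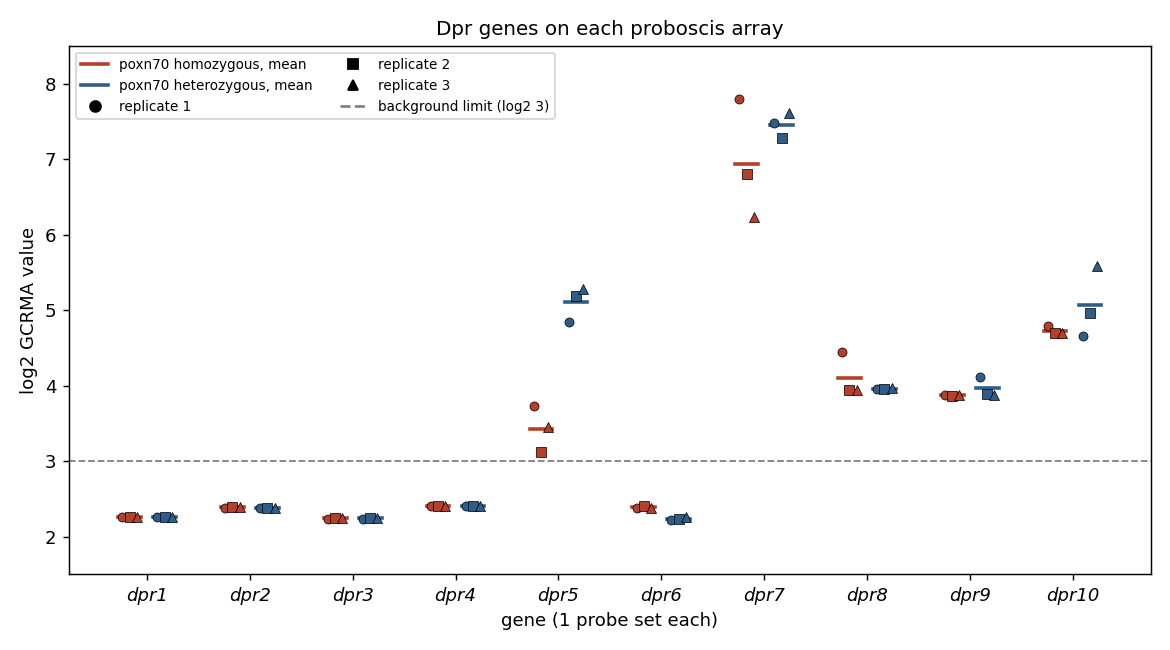
Log2 GCRMA values of dpr1 to dpr10 on each array, with poxn70 homozygous arrays in red and heterozygous arrays in blue, bars at the group means, marker shapes for replicate numbers and a dashed line at the background limit of 3. For dpr5 the homozygous values (3.12 to 3.73) lie under all heterozygous values (4.84 to 5.28), while dpr1 to dpr4 and dpr6 lie under the limit on all arrays.

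dpr1, the founding gene of the family, is also known for a role in the timing of male courtship. Its probe set (1638552_at) read 2.26, 2.26 and 2.26 in homozygous proboscises, against 2.25, 2.26 and 2.26 in heterozygous proboscises. The genotypes overlapped, and the other probe sets of the gene were under the limit as well. The label of these genes as taste neuron proteins could therefore not be checked on dpr1, the member with the best known taste role: no signal of its transcript was above the limit in this whole-organ RNA. For dpr1, dpr2, dpr3 and dpr4 together, all 24 values lay between 2.23 and 2.41, and the widest range of a gene over the 6 arrays was 0.019. The largest difference of these 4 genes was 0.0079, and their smallest adjusted p was 0.611 (limma). A value in this band is not well above background, which is no measure of absence.

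dpr6 encodes a ligand of DIP-alpha, a property it shares with dpr10, and the pair acts in the matching of optic lobe neurons. Its probe set (1631559_s_at) read 2.37, 2.41 and 2.38 in homozygous proboscises, against 2.21, 2.24 and 2.25 in heterozygous proboscises. All homozygous values were above all heterozygous values, by a difference of 0.15 ± 0.015 (SE) that passed the threshold (limma adjusted p = 0.0381). No fold is given, since every value lay under the limit. Of the 9045 probe sets with all values under the limit, 2 were called in either direction, dpr6 among them, and in 24.4% of them the homozygous values were all higher than the heterozygous ones. The suffix of this probe set marks probes that can match more than 1 transcript family. The other 2 probe sets of dpr6, without that suffix, had means of 2.28 against 2.28 and of 2.26 against 2.26. With the replicate number as a fixed block the adjusted p of dpr6 was 0.271, and without 1 array in turn it ran from 0.0627 to 0.221, so the call ended each time.

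dpr5 lies directly beside dpr4 on chromosome arm 3R. Its only probe set (1637870_a_at) read 3.73, 3.12 and 3.44 in homozygous proboscises, against 4.84, 5.19 and 5.28 in heterozygous proboscises. Homozygous arrays were thus near the limit and heterozygous arrays clearly above it, with 1.10 log2 units between the highest homozygous and the lowest heterozygous value. The means were 3.43 ± 0.31 in homozygotes and 5.10 ± 0.23 in heterozygotes (SD, n = 3 each). The difference was -1.67 ± 0.23 (SE), with a 95% interval from -2.26 to -1.08. By its unadjusted limma p of 0.00066 dpr5 ranked 127 among 18769 probe sets, and its adjusted p of 0.0965 missed the threshold. Homozygous values were lower in all 3 same-numbered pairs, by -1.10, -2.08 and -1.83. Non-overlap with lower homozygous values was seen in 8.55% of all genes above the limit. Its neighbour dpr4 stayed at background in both genotypes, at 2.40 ± 0.0033 against 2.40 ± 0.0015 (SD, n = 3 each).

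The call on dpr5 changed with the probe sets fitted, the scaling of the arrays and the use of the replicate number. The adjusted p was 0.0259 once the dimmer 50% of probe sets were dropped, 0.0473 with each array centred on its bright probe sets, and 0.0497 with the replicate number as a random effect in the block. With the fixed block it was 0.334, and without 1 array in turn it ran from 0.0779 to 0.385. Over all 14 alternatives the difference stayed between -1.95 and -1.51 and the unadjusted p at or under 0.0091. The trend, the block, the omission of dim probe sets and the averaging of probe sets cannot move the difference of this gene, only its p. Without homozygous replicate 1, the array with low 5′ signal, the difference was -1.82.

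The transcripts of taste neurons differed between the same arrays. Among 11 taste neuron marker genes, of which 10 exceeded the limit, limma called 4 lower and 0 higher. Of all probe sets, 0.314% were called lower and 0.0586% higher. Of the 10 markers, 9 were lower without overlap, against 8.55% of all genes above the limit. Sums of marker lists add the signals on the linear scale and are given as log2, so the brightest probe sets lead them. For the taste neuron list the sum was 7.38 to 8.38 on the homozygous arrays, against 11.30 to 11.94 on the heterozygous arrays. The lowest sum was on homozygous replicate 1. Ir25a, a co-receptor of many chemosensory neurons, averaged 6.49 ± 0.31 in homozygotes and 10.16 ± 0.35 in heterozygotes (SD, n = 3 each, limma adjusted p = 0.0176). Without homozygous replicate 1, 5 taste markers were called lower, while with the fixed replicate block, or without both arrays numbered 1, 0 were. The adjusted p of Ir25a was 0.201 with that block. Pan-neuronal markers, 8 of 10 above the limit, summed to 11.98 to 12.51 on the homozygous arrays, against 12.88 to 12.91 on the heterozygous arrays, with 0 called. The highest homozygous sum was on replicate 1. Of the 8, 7 had lower and 1 had higher homozygous means. Lower values without overlap were seen in 3, against 8.55% of all genes above the limit. Among these, nrv3 read 11.09, 11.17 and 10.60 in homozygotes, against 11.43, 11.42 and 11.47 in heterozygotes. Appl read 10.35, 9.98 and 9.74, against 10.99, 11.36 and 11.20. The neuronal marker elav read 6.28, 8.40 and 8.27 in homozygotes, against 8.61, 8.68 and 9.16 in heterozygotes. Its low value was on replicate 1, the array with low 5′ signal, and the difference was -1.17 with that array and -0.48 without it. In whole-organ RNA, fewer cells of a type and less RNA per cell cannot be told apart, and the part of either list in the dpr5 values was not tested. Blood cell markers, 7 of 8 above the limit, differed the other way, with sums of 12.27 to 12.66 against 11.48 to 11.81 and 0 called. Of the 7, 3 were higher without overlap, against 13.3% of all genes above the limit.

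**Figure D2:**
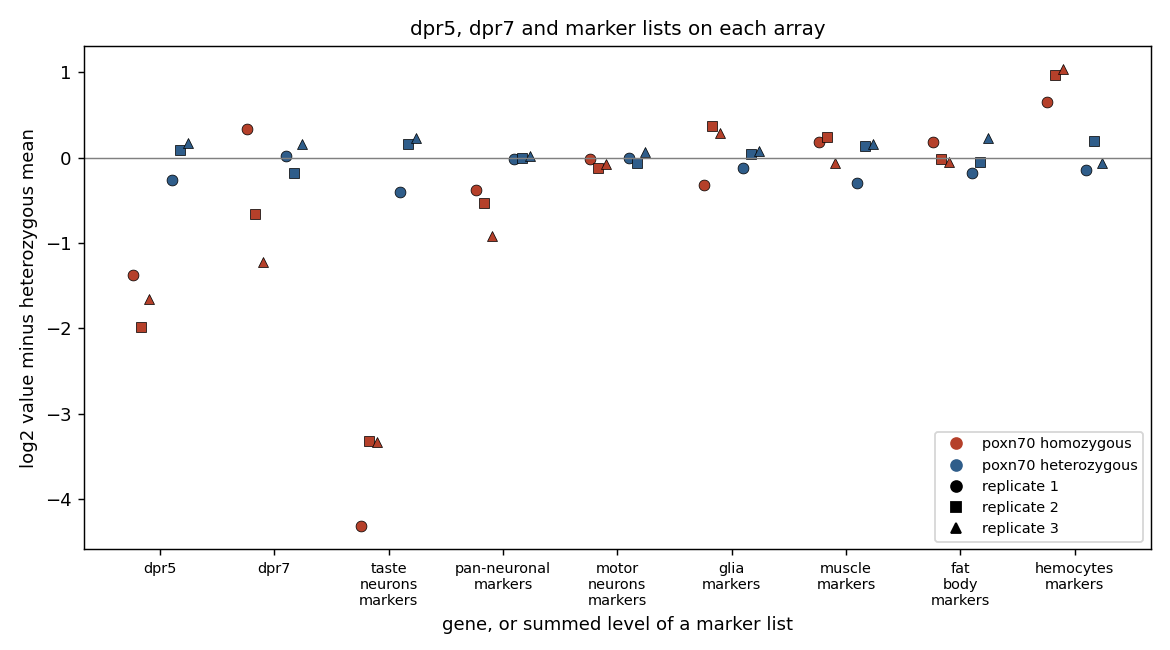
Log2 values of dpr5, dpr7 and of the summed levels of 7 marker lists on each array, each minus its mean over the heterozygous arrays, with homozygous arrays in red, heterozygous arrays in blue and marker shapes for replicate numbers. The homozygous arrays lie at -1.99 to -1.37 for dpr5 and at -4.32 to -3.32 for the taste neuron markers, while dpr7 lies above zero on homozygous replicate 1 and below it on replicates 2 and 3.

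The summed markers of other cell types overlapped between the genotypes. Muscle markers, 8 of 8 above the limit, summed to 14.90 to 15.21 on the homozygous arrays and 14.66 to 15.13 on the heterozygous arrays. Glial markers, 4 of 7 above the limit, summed to 13.46 to 14.15 and 13.65 to 13.86, mostly from Gs2, while repo, moody and nrv2 had lower homozygous means. Motor neuron markers, 2 of 5 above the limit and with the glutamate transporter VGlut under it, summed to 5.29 to 5.41 and 5.36 to 5.48. Of those 2, tup read 4.21, 4.17 and 4.27 in homozygotes, against 4.44, 4.32 and 4.56 in heterozygotes. Such lower values without overlap were seen in 8.55% of all genes above the limit. The other exceeded the limit on homozygous replicate 1 only. Fat body markers, 2 of 6 above the limit, summed to 14.02 to 14.26 and 13.88 to 14.30, nearly all from apolpp. Photoreceptor markers, with a probe set for 3 of 9 genes, summed to 7.94 to 11.62 and 8.96 to 11.40, so the sums overlapped in each of these 5 lists. No member of these lists passed the threshold.

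dpr7, on chromosome 4, gave values far above the limit on every array. Its probe set (1624581_at) read 7.79, 6.80 and 6.23 in homozygous proboscises, against 7.48, 7.27 and 7.61 in heterozygous proboscises. Homozygous replicate 1 was the highest of all 6 arrays and homozygous replicates 2 and 3 the lowest, so the genotypes overlapped. The homozygous SD was 0.79, against 0.17 in heterozygotes. The difference was -0.51, with a 95% interval from -1.59 to 0.56 (limma adjusted p = 0.611), which spans decreases as well as smaller increases. Without homozygous replicate 1 the difference was -0.94 with an interval from -1.57 to -0.31 (adjusted p = 0.291), and without homozygous replicate 3 it was -0.16. Leaving out either array moved the value by more than 1.5 times without changing the call.

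dpr10, the other ligand of DIP-alpha, is made by muscles in the larva and the adult leg, where motor neurons carry the receptor. Its probe set (1624702_s_at) read 4.79, 4.70 and 4.70 in homozygous proboscises, against 4.66, 4.97 and 5.59 in heterozygous proboscises. The homozygous arrays lay within 0.09 of each other, and the spread came from the heterozygous arrays, of which replicate 1 was the lowest of all 6 and replicate 3 the highest. The difference was -0.34, with a 95% interval from -1.10 to 0.41 (limma adjusted p = 0.611). Without heterozygous replicate 3 it was -0.09, and without heterozygous replicate 1 it was -0.55. Its probe set carries the same suffix as that of dpr6, so cross-hybridization is possible. DIP-alpha itself was at background, at 2.29 ± 0.050 in homozygotes and 2.29 ± 0.056 in heterozygotes (SD, n = 3 each).

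dpr8 and dpr9 passed the limit of 3 with values that hardly varied. The dpr8 probe set (1625732_at) read 4.44, 3.94 and 3.94 in homozygous proboscises, against 3.95, 3.96 and 3.96 in heterozygous proboscises. Apart from homozygous replicate 1, the array with low 5′ signal, its 5 values lay within 0.027 of each other. The dpr9 probe set (1632889_at) read 3.87, 3.86 and 3.88 in homozygous proboscises, against 4.12, 3.89 and 3.88 in heterozygous proboscises. Here heterozygous replicate 1 was the high array, and the other 5 values lay within 0.030 of each other. Of 1295 probe sets with a mean from 3 to 5, 9.03% had 5 arrays within 0.05, against 91.4% of 9323 probe sets with a mean from 2 to 3, a window chosen after these values were seen. In this narrowness the dpr8 and dpr9 values were like most probe sets of the background band, although they lay above the limit. The other 3 probe sets of both genes had 1 value above the limit, a dpr8 value of 3.31 on heterozygous replicate 1.

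Neither gene passed the test. The difference was 0.15 for dpr8, with a 95% interval from -0.30 to 0.60 (limma adjusted p = 0.654), and it was -0.020 without homozygous replicate 1. For dpr9 it was -0.094, with an interval from -0.38 to 0.19 (limma adjusted p = 0.653), and -0.015 without heterozygous replicate 1. The groups of dpr9 did not overlap, with homozygous values lower by as little as 0.0031. The lowest value of a member above the limit of 3 was 3.12, in dpr5. By the highest array, which decides whether a gene passes the limit, the members just inside were dpr9, at 4.12, and dpr8, at 4.44. Just outside was dpr6, at 2.41 on its highest array.

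**Figure D3:**
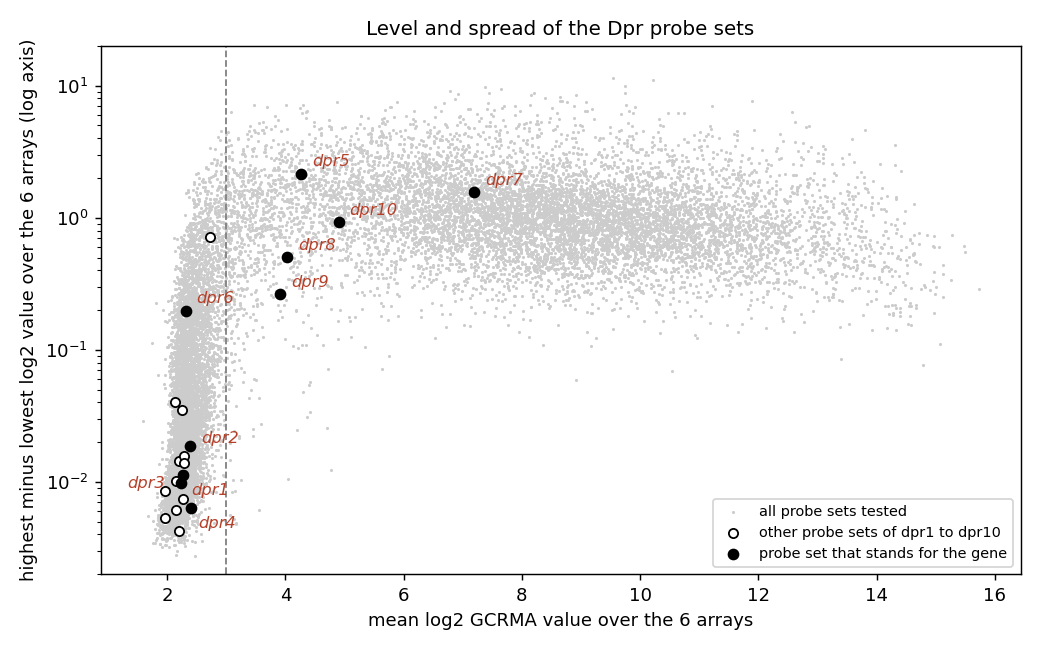
Mean log2 GCRMA value over the 6 arrays (horizontal) and the gap between the highest and the lowest array (vertical, log axis) for all 18769 probe sets in grey, the probe sets that stand for dpr1 to dpr10 in black and the other probe sets of these genes as open circles, with a dashed line at the background limit. dpr5, dpr7 and dpr10 varied over the arrays by 2.16, 1.56 and 0.92, dpr8 and dpr9 by 0.51 and 0.26, and dpr1 to dpr4 by at most 0.019.

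Over the 5 members above the limit, 4 had lower and 1 had higher homozygous means, and 2 were lower without overlap, against 8.55% of all genes above the limit. Those 2 were dpr5 and dpr9, and the dpr9 groups were separated by 0.0031 only. Their median difference was -0.34, against 0.045 over all 7930 genes above the limit, of which 45.3% had lower homozygous means. Over all 10 members the median was 0.0020, against 0.0047 over all 11982 genes. These are descriptions of a small family chosen with results of these data known. The median was -0.13 without heterozygous replicate 3, -0.16 without homozygous replicate 3, -0.18 after quantile normalization and -0.58 without both arrays numbered 1.

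The wider family and its binding partners were on the array with 22 of 24 listed genes, and 9 of these were above the limit. The list held the remaining Dpr genes (dpr11 to dpr21), the DIP genes, and klg (klingon) and Lac (Lachesin), which belong to the same immunoglobulin subfamily. None of the 22 was called by limma in either direction. At an unadjusted p under 0.05, 0 were lower and 1 was higher, against 2.9% lower and 4.33% higher of all probe sets, and that gene, DIP-beta, was at background in both genotypes. Homozygous means were lower in 6 and higher in 3 of the 9 genes above the limit, and the median of the 9 differences was -0.094. No gene of the list was called under any alternative.

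Of the Dpr relatives, 4 of 10 were above the limit. dpr19 read 6.72, 6.15 and 6.36 in homozygous proboscises, against 7.26, 6.59 and 7.17 in heterozygous proboscises. The homozygous values were lower in all 3 same-numbered pairs but overlapped the heterozygous ones, and the difference was -0.60, with a 95% interval from -1.29 to 0.094 (limma adjusted p = 0.611). dpr20 averaged 8.03 ± 0.45 in homozygotes and 7.90 ± 0.058 in heterozygotes (SD, n = 3 each), with its highest value, 8.55, on homozygous replicate 1. dpr18 averaged 4.53 ± 0.49 in homozygotes and 4.60 ± 0.16 in heterozygotes (SD, n = 3 each), and dpr17 averaged 3.22 ± 0.34 and 3.50 ± 0.17 (SD, n = 3 each). These 3 overlapped between genotypes. The genes dpr11, whose product pairs with DIP-gamma in colour vision, and dpr12, whose product pairs with DIP-delta in the mushroom body, were under the limit on all arrays, and so were DIP-gamma and DIP-delta.

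Of the DIP genes, 3 of 10 were above the limit. DIP-theta averaged 5.32 ± 0.24 in homozygotes and 5.51 ± 0.14 in heterozygotes (SD, n = 3 each), and DIP-kappa averaged 3.48 ± 0.13 and 3.58 ± 0.20 (SD, n = 3 each). DIP-zeta read 3.22, 3.03 and 2.96 in homozygotes, against 2.93, 2.87 and 2.93 in heterozygotes, so only 2 of its 6 values passed the limit. The differences of these 3 genes ran from -0.19 to 0.16 and their groups overlapped, apart from those of DIP-zeta. DIP-theta and DIP-kappa were lower in all 3 same-numbered pairs, by as little as -0.063 and -0.0023. The groups of DIP-zeta showed a non-overlap seen in 13.3% of all genes above the limit with higher homozygous values. klg, a homophilic adhesion protein needed for photoreceptor development and long-term memory, read 5.17, 4.31 and 4.80 in homozygotes, against 5.35, 5.34 and 5.37 in heterozygotes. All its homozygous values were lower, as in 8.55% of all genes above the limit. The difference was -0.59, with a 95% interval from -1.31 to 0.13 (limma adjusted p = 0.611). Lac, a septate junction protein of tracheal and other epithelia, averaged 12.00 ± 0.14 in homozygotes and 11.85 ± 0.11 in heterozygotes (SD, n = 3 each).

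**Figure D4:**
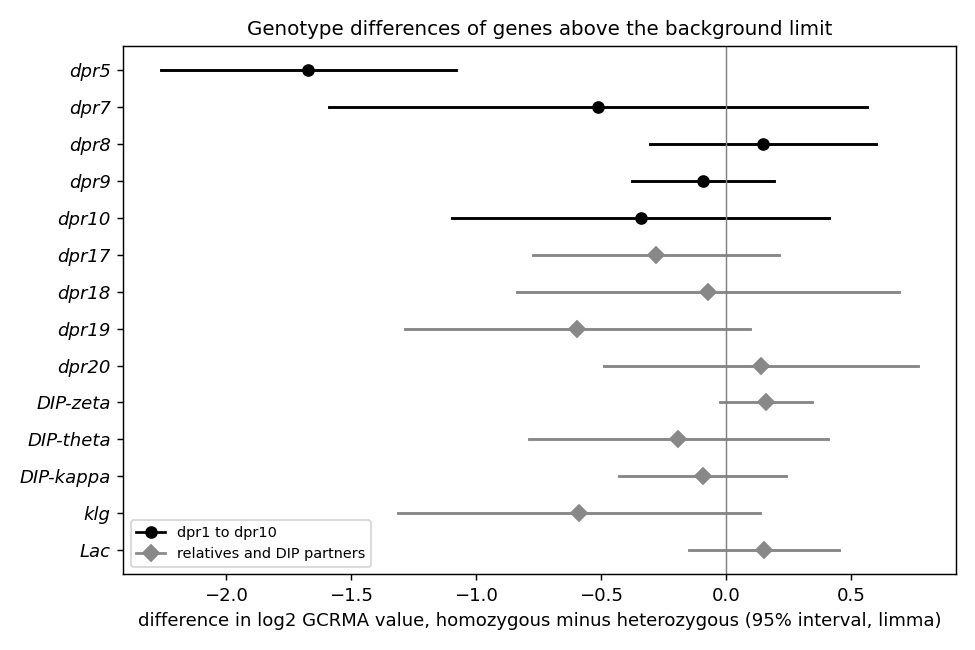
Difference in log2 GCRMA value, homozygous minus heterozygous, with its 95% interval from limma for the 5 Dpr genes above the background limit (black circles) and the 9 relatives and partners above it (grey diamonds). Of these 14 intervals only that of dpr5 (-2.26 to -1.08) excludes zero, before any adjustment for the number of tests.

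The genes whose values followed each member most closely over the 6 arrays were found among 7599 other genes with a mean of at least 3, by the root mean square difference of log2 values after each gene was centred on its own mean. Nearest to dpr5 were CG4462 (0.17), Nep6, a member of the neprilysin peptidase family (0.18), and Tsp39D, a tetraspanin (0.19). Nep6 averaged 8.14 ± 0.35 in homozygotes and 9.60 ± 0.24 in heterozygotes, and Tsp39D averaged 7.91 ± 0.33 and 9.36 ± 0.17 (SD, n = 3 each). CG4462 averaged 5.32 ± 0.18 in homozygotes and 6.77 ± 0.24 in heterozygotes (SD, n = 3 each). All 3 missed the threshold (limma adjusted p from 0.106 to 0.142). Since they were chosen for a pattern like that of dpr5 on these arrays, a like genotype difference follows from the choice.

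Nearest to dpr7 were Sh (Shaker), a voltage-gated potassium channel (0.11), SK, a calcium-activated potassium channel (0.15), and CG6282 (0.16). Sh read 9.16, 8.02 and 7.65 in homozygotes, against 8.71, 8.70 and 8.76 in heterozygotes, with the same order of the homozygous arrays as in dpr7. For dpr10 the nearest were CG31663 (0.11), Sdr, a secreted decoy receptor of insulin-like peptides (0.12), and path, an amino acid transporter (0.12). For dpr8 they were FucTB (0.015), Pi4KIIalpha (0.023) and CG15461 (0.027), each with its highest value on homozygous replicate 1. For dpr9 they were CG7069 (0.026), CG31125 (0.038) and Vps60 (0.043), each with its highest value on heterozygous replicate 1. None of these 12 genes was called. Their likeness to the members in the order of arrays and in the highest array follows from how they were chosen.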

How the data were processed

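The authors deposited 1 log2 value per probe set and array, made with GCRMA according to the submitters' processing notes. The sources used here give no version, and the values' range shows the log2 scale. Per the labels' protocols, cRNA amplified in 2 rounds from about 50 ng of total RNA was labelled with biotin. Of 18952 probe sets, 183 array controls were left out. Names came from the platform annotation, updated through a RefSeq gene table (Release 6 plus ISO1 MT), which matched 13544 of 13647 single-gene probe sets. The files name no genome build, so no coordinates are given.

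The genotypes were compared in R 4.3.3 by limma 3.58.1 (lmFit, eBayes with an intensity trend) over all 18769 probe sets, with Benjamini-Hochberg adjustment, and the fit was tested on simulated data. A gene counted as above the limit unless all 3 values of each genotype were under 3. The genes named were all 10 members, the listed relatives and partners above the limit, the 3 nearest genes of each member above it, and some of the leading markers. The leading blood cell, muscle and photoreceptor markers were not named, nor were those next to Ir25a, tup and apolpp in mean level. elav, Poxn, VGlut, repo, nrv2, and relatives at background were named outside this rule, after their values were seen. The members and lists were chosen with earlier results of these data known. The main fit used no pairing or block, so its p-values and intervals are unpaired. Same-numbered arrays were compared as pairs, and blocked in alternatives, because their deviations from the group means correlated at 0.372, 0.288 and 0.142. No correlations of differently numbered arrays are given to set against these. The labels state no pairing. Alternatives covered the trend, the block, dim probe sets, scaling, the choice of probe set, the limit and arrays left out. Those on marker genes were chosen after seeing the data.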

Additional observations from a re-analysis of the deposited data

How the results depend on the processing

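With 3 arrays a genotype, precision is limited by the number of arrays, and signal over background is known only from the band of dim probe sets. The 70 probe sets called in all became 0 with the replicate number as a fixed block, 167 as a random block, 157 with the dimmer 50% left out, 111 after median centring on bright probe sets, 6 to 66 without 1 array in turn, and 9 without both arrays numbered 1, an alternative chosen after seeing the data. Members called lower were 0, and 1 (dpr5) under the random block, the omission of dim probe sets and the centring. Members called higher were 1 (dpr6), kept by the random block and 0 under the 13 other settings, among them leaving out 1 array in turn (0 to 0) and the replicate block as a fixed term. dpr6 was not tested with dim probe sets left out, since it is among them. The median difference of members above the limit was -0.18 after quantile normalization, -0.50 to -0.13 without 1 array in turn, and -0.58 without both arrays numbered 1. The difference of dpr8 turned to -0.025 with the mean over its probe sets, -0.020 without homozygous replicate 1 (up to 0.23 without another array) and -0.023 without both arrays numbered 1. That of dpr9 turned to 0.080 after quantile normalization. The cause of these changes was not tested, and some settings hold fewer probe sets or arrays. The number of members above the limit was 5 under all 16 alternatives, also at limits of 2.5 and 4, although at 4 dpr8 and dpr9 rested on 1 array each. The trend, the block and the omission of dim probe sets leave the values of these members unchanged. Only the other settings could move this count. dpr1 to dpr4 were at background in both genotypes, so no difference was recomputed for them.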
